A study of Mus musculus with 18 samples.

Results

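Interleukin-6 (IL-6) was added to mouse bone marrow cells growing in granulocyte-macrophage colony-stimulating factor (GM-CSF), and messenger RNA from these cultures was set against that of cultures given GM-CSF alone. The 6 libraries were chosen by their titles, 3 from wild-type (WT) marrow with GM-CSF and IL-6 and 3 from WT marrow with GM-CSF, out of 18 libraries in 6 groups. All WT marrow came from BALB/c mice, and every library was made from a pool of 3 mice. The IL-6 cultures received 40 ng/mL GM-CSF with 40 ng/mL IL-6, and the GM-CSF cultures 40 ng/mL GM-CSF, in complete RPMI medium for 4 days. WT marrow was also cultured with GM-CSF and medium from EMT6 mammary carcinoma cells, and the same 3 conditions were run on marrow labelled Cysltr1-/-, called labelled-deficient below. The labels name the cells only as bone marrow derived cells undergoing in vitro myelopoiesis, with no sorting step given. They give no age or sex, and they do not say whether the 3 pools of a group came from separate experiments. The p-values thus measure the spread between pools within a group, estimated over all 18 libraries of the 6 groups.

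IL-6 binds its receptor, Il6ra, and the shared signalling chain gp130, encoded by Il6st. Janus kinases bound to gp130 then phosphorylate the transcription factor STAT3, and one of its best known target genes, Socs3, encodes an inhibitor that shuts gp130 signalling down. GM-CSF signals mainly through STAT5 and drives marrow progenitors to become granulocytes, macrophages and dendritic cells. IL-6 is known to promote granulocyte production and immunosuppressive myeloid cells in tumour-bearing mice, and to oppose dendritic cell development.

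The IL-6 libraries held 27627479, 23591758 and 28855190 reads assigned to genes, and the GM-CSF libraries 24553253, 19173120 and 31989342. Markers of granulocytes, macrophages and dendritic cells were all present, and no marker of any of the 10 cell types examined was at 0 in all 6 libraries. Levels are given as CPM, counts per 1000000 reads of the tested genes, with library totals scaled as described at the end. The summed level of 11 neutrophil markers was 7023 to 7334 CPM in IL-6 cultures and 12090 to 13180 CPM in GM-CSF cultures. For 9 dendritic cell markers it was 4816 to 5110 CPM with IL-6 and 8605 to 8889 CPM with GM-CSF. For 10 monocyte or macrophage markers it was 6492 to 6891 CPM with IL-6 and 8324 to 8745 CPM with GM-CSF. In the edgeR test given below, 9 neutrophil markers were called lower and 2 higher, and 8 dendritic cell markers lower and 0 higher. The monocyte or macrophage markers were mixed, with 6 called lower and 4 higher. Lyz2, 1 of these 10, held 0.24% of gene counts with IL-6 and 0.42% with GM-CSF, a large part of their sum. Likewise Cd74, 1 of the 9 dendritic cell markers, held 0.28% with IL-6 and 0.52% with GM-CSF, a large part of the dendritic cell sum. Globin genes and Alas2 lay under 1 CPM, as did the stromal and epithelial genes Dcn, Lum, Krt8 and Krt18, while Cdh1 was at 1080 to 1148 CPM with IL-6 and 806 to 868 CPM with GM-CSF. In bulk RNA a smaller number of cells of a type and less of an mRNA per cell cannot be told apart, and the part of these marker levels in the results below was not tested.

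Of 55536 annotated genes, 28334 had enough counts to test, by a filter over all 18 libraries. Of these, 13288 averaged under 1 CPM in the 6 WT libraries, and 1.98% of those were called. With only the 6 libraries compared in the filter and fit, 19174 genes were tested and 6283 called. In the main fit, the edgeR quasi-likelihood test called 21.7% of the 28334 genes, 6135, at an adjusted p under 0.05. These were 10.4% called higher with IL-6, 2940 genes, and 11.3% called lower, 3195 genes. Most changes were small: 4629 calls, 75.45%, were under 1.5-fold, and 2.03% of tested genes, 574, were called at 2-fold or more, 249 higher and 325 lower. Among the 11194 genes that reached 5 CPM on average in either group, 48.3% were called, 23.6% higher and 24.8% lower, and 2.36% at 2-fold or more. The counts of called list members below are read against those last shares, since most members are expressed at such levels. The ranges of the 2 groups did not overlap in 31.1% of tested genes, and in 57.5% of those at 5 CPM or more. The median log2 fold change (IL-6 over GM-CSF) of all tested genes was -0.03, and that of genes at 5 CPM or more 0.0047.

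**Figure D1:**
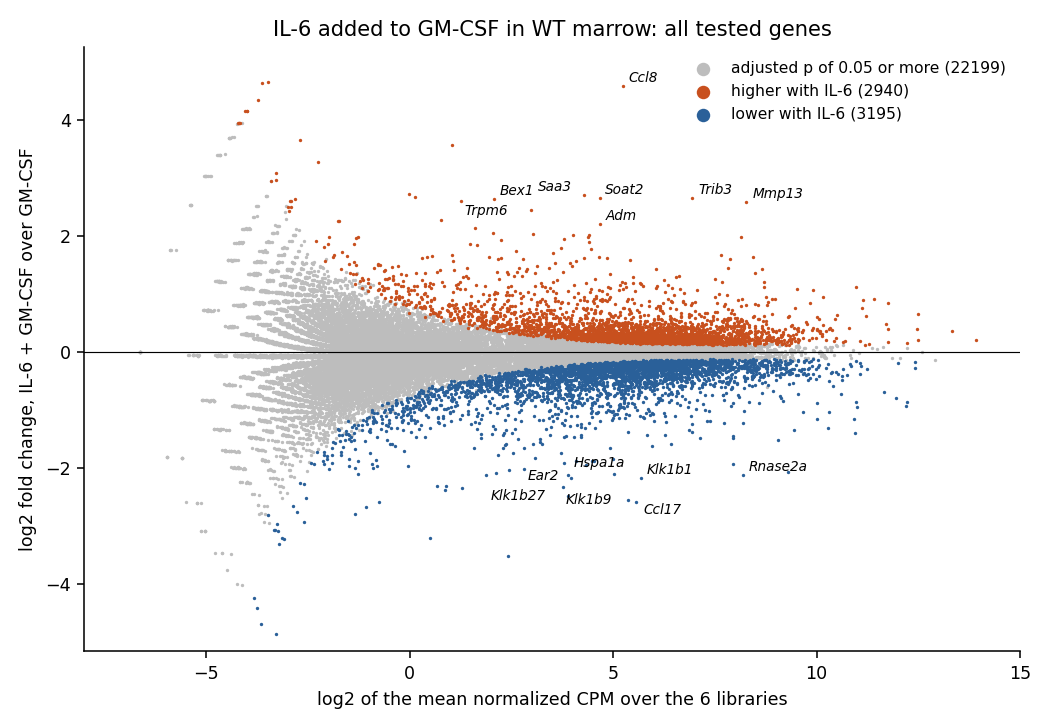
Each point is a tested gene, with the log2 of its mean CPM over the 6 WT libraries on the x axis and its log2 fold change, IL-6 over GM-CSF, on the y axis. The 2940 genes called higher are orange, the 3195 called lower blue and the others grey. The named genes are among the largest rises and falls.

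Fold changes varied with the length of the mRNA, which bears on several groups below. For genes of at least 5 CPM, the median log2 fold change was -0.30 for 516 genes with under 1 kb of exon sequence and 0.11 for 2020 genes with 8 kb or more. Of the shortest genes 57.75% were called lower and 6.395% higher, whereas of the longest 11.04% were called lower and 39.16% higher. The shortest genes lay below the mean of the 6 libraries by 0.17, 0.12 and 0.14 log2 units in IL-6 replicates 1 to 3. They lay above it by 0.15, 0.07 and 0.20 log2 units in GM-CSF replicates 1 to 3, so the groups did not overlap. The longest genes lay at 0.08, 0.08 and 0.01 in IL-6 replicates 1 to 3 and at -0.06, 0.03 and -0.12 in GM-CSF replicates 1 to 3. In that class the groups overlapped, and the GM-CSF libraries differed among themselves. In labelled-deficient marrow the median log2 fold change ran from -0.13 in the shortest genes to 0.01 in the longest. The part of this trend in any single result was not tested, but an alternative fit with an offset for exon length, added after the data were seen, is quoted where it moves a count given below by over 1.5 times or turns a list's median.

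**Figure D2:**
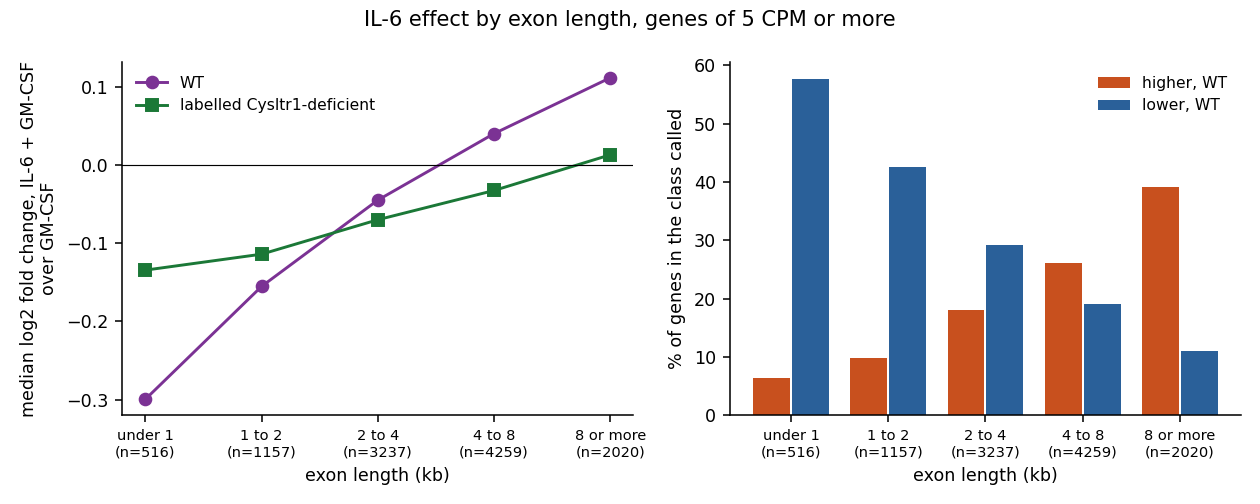
The left panel plots the median log2 fold change with IL-6 by exon length class in WT and labelled-deficient marrow, for genes of at least 5 CPM. The right panel plots the percentage of genes called higher or lower in WT marrow, with the percentage called lower at 57.75 in the shortest class and 11.04 in the longest.

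Ccl8 encodes a chemokine that attracts monocytes and other leukocytes. It had the largest rise among called genes of at least 5 CPM without overlap, leaving out genes with predicted or clone names. It lies on chromosome 11 at 82115185-82116799 of mm10 and was at 72.2, 73.7 and 72.5 CPM in the IL-6 libraries, against 2.53, 2.71 and 3.65 CPM in the GM-CSF libraries. All IL-6 libraries were above all GM-CSF libraries, and the log2 fold change was 4.58 ± 0.09 (± is the standard error of the edgeR fit, n = 3 each; edgeR adjusted p = 5.50e-35). The acute-phase apolipoprotein gene Saa3 was at 33.2, 34.0 and 34.5 CPM with IL-6 and 4.71, 4.66 and 5.88 CPM with GM-CSF (log2 fold change 2.71 ± 0.09). Collagenase-3, encoded by Mmp13 on chromosome 9 at 7272514-7283331, was at 515, 543 and 533 CPM with IL-6 and 83.1, 95.1 and 88.0 CPM with GM-CSF (2.58 ± 0.05). The mannose receptor gene Mrc1 stood at 445, 469 and 445 CPM with IL-6 and 106, 122 and 114 CPM with GM-CSF (1.99 ± 0.06). In each of these genes the groups were separate, which the rule that chose them required, and the spread within a group was small beside the gap. The other large rises included Bex1 (2.63 ± 0.19), the magnesium channel gene Trpm6 (2.45 ± 0.14), the growth factor gene Tgfb3 (2.02 ± 0.08), the orphan receptor gene Gprc5b (2.02 ± 0.11) and the metalloproteinase gene Mmp27 (1.92 ± 0.16), all as log2 fold changes.

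The product of Ccl17 attracts Th2 and regulatory T cells through CCR4. This gene had the largest fall among genes chosen in the same way. It lies on chromosome 8 at 94810453-94812036 and was at 12.9, 13.9 and 13.8 CPM with IL-6, against 76.0, 75.8 and 91.5 CPM with GM-CSF (log2 fold change -2.59 ± 0.07). Of the 15 largest falls so chosen, 4 were tissue kallikrein genes of the Klk1b cluster. These serine protease genes sit side by side in the genome and share much of their sequence. The most abundant, Klk1b11, was at 233, 253 and 239 CPM with IL-6 and 1104, 946 and 1001 CPM with GM-CSF (-2.07 ± 0.07). All 7 tested genes of the cluster were called lower, while DESeq2 called 4 of them; how reads were divided among these near-identical copies is unknown. The eosinophil ribonuclease genes Rnase2a (-2.11 ± 0.07) and Ear2 (-2.17 ± 0.11) and the heat shock genes Hspa1a (-2.11 ± 0.10) and Hspa1b (-2.10 ± 0.07) also have close copies. The receptor tyrosine kinase gene Axl, whose product takes part in clearing dead cells, was at 103, 100 and 103 CPM with IL-6 and 380, 408 and 378 CPM with GM-CSF (-1.93 ± 0.05). Aldh3a1 (-2.09 ± 0.15), an aldehyde dehydrogenase gene, and Hepacam2 (-1.88 ± 0.10), an adhesion protein gene, were also among the 15.

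**Figure D3:**
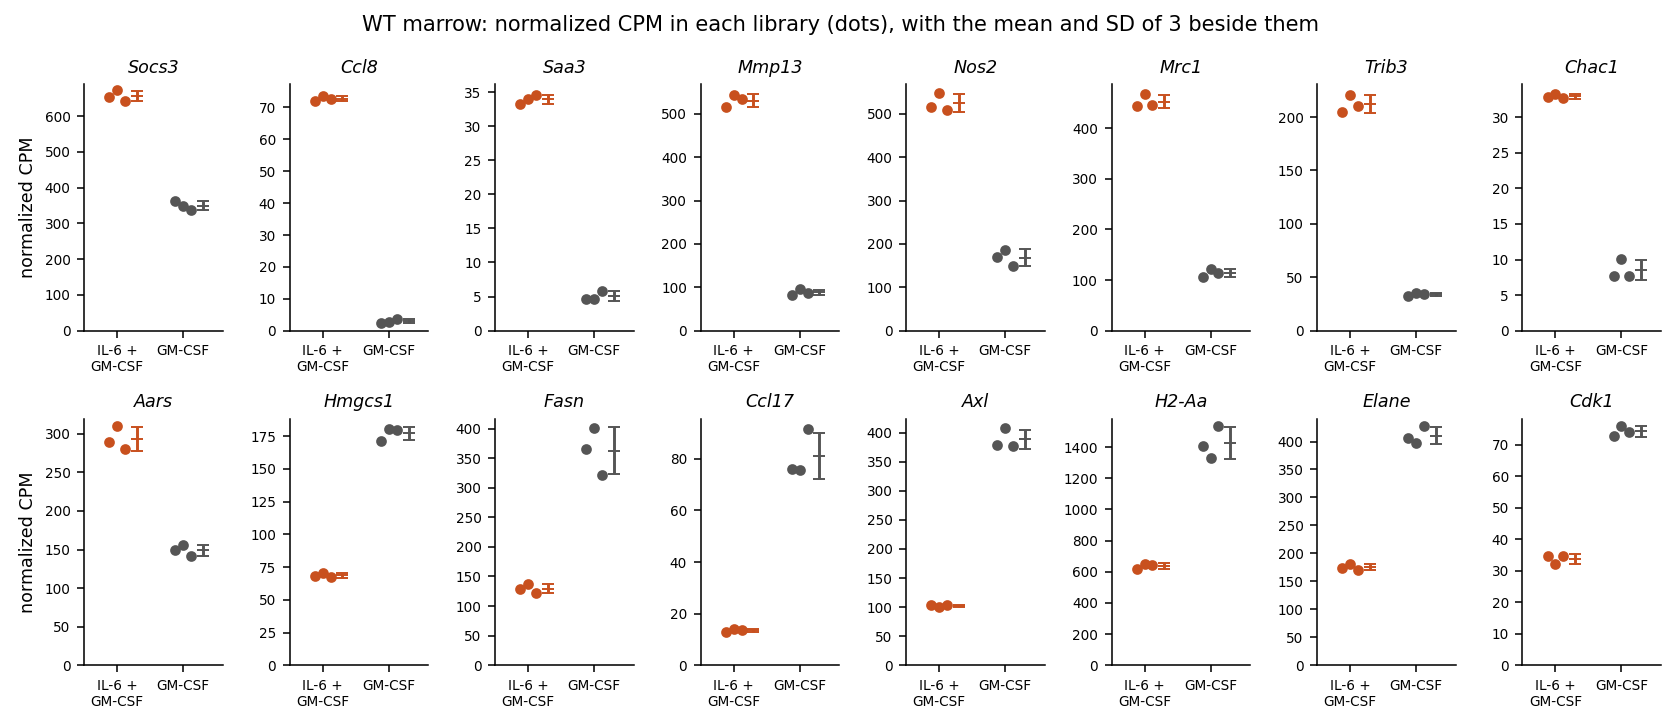
Dots are the CPM of single libraries of 16 genes, with IL-6 to the left of GM-CSF in each panel, and the bars give the mean ± SD of 3 libraries. No gene shown has overlapping groups, and the 3 libraries of a group lie close together.

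The IL-6 pathway itself responded at its feedback inhibitor and at its receptors. Socs3, on the minus strand of chromosome 11 at 117966079-117970047, was at 652, 672 and 643 CPM with IL-6, against 363, 349 and 336 CPM with GM-CSF. The groups did not overlap, and the log2 fold change was 0.91 ± 0.05 (edgeR adjusted p = 1.49e-20). The gp130 gene Il6st was at 364, 364 and 346 CPM with IL-6 and 202, 228 and 193 CPM with GM-CSF (0.79 ± 0.05). Il6ra (0.40 ± 0.06), the Janus kinase gene Jak3 (0.73 ± 0.06) and the adaptor gene Gab1 (0.79 ± 0.07) were also called higher. Of 24 genes for IL-6 receptor and JAK-STAT components 8 were called higher and 4, Stat2 (-0.42 ± 0.06) among them, lower, with a median log2 fold change of 0.02. With the exon-length offset 7 of the 24 were called higher and 7 lower, and 2 were called lower by DESeq2 and without GM-CSF replicate 1, GM-CSF replicate 2 or IL-6 replicate 1. Of 16 genes for SOCS and other feedback inhibitors 5 were called higher and 2 lower, against 6 higher and 4 lower with the offset. Socs2, a known STAT5 target, was at 108, 109 and 106 CPM with IL-6 and 171, 176 and 175 CPM with GM-CSF (-0.70 ± 0.05), opposite to Socs3.

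Classical STAT3 target genes moved less uniformly. Of 26 genes known to respond to IL-6 or STAT3, 12 were called higher and 3 lower, with a median log2 fold change of 0.15. The protease inhibitor gene Timp1 was at 31.9, 34.2 and 34.3 CPM with IL-6 and 13.9, 12.8 and 14.7 CPM with GM-CSF (1.26 ± 0.08). The NF-kB cofactor gene Bcl3 (0.84 ± 0.06) and the IL-4 receptor gene Il4ra (0.58 ± 0.05) rose as well, while Birc5 (-1.13 ± 0.07), which also belongs to the cell division genes below, fell. Among 17 tested acute-phase genes of 23 listed, 3 were called higher and 4 lower: beside Saa3, the iron and copper reductase gene Steap4 rose (1.85 ± 0.22), whereas lipocalin-2 (Lcn2, -0.55 ± 0.05) and haptoglobin (Hp, -0.37 ± 0.05) fell. Il6 mRNA was itself at 11.7, 12.3 and 12.4 CPM with IL-6 and 4.91, 4.22 and 4.89 CPM with GM-CSF (1.36 ± 0.10), without overlap.

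The Socs3 promoter holds a STAT motif, TTCNNNGAA, in which N is any base. The 100 bases below run from 200 to 101 bases before the RefSeq gene start on the minus strand at chr11:117969467-117969566 of GRCm38.p6, the assembly behind mm10, with the motif in capitals.
Socs3: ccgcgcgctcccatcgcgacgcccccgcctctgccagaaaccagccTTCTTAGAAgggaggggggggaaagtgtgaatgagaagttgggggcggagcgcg
The motif was searched on both strands from 250 bases before to 50 bases after each start. It was found in 9.55% of 27025 genes with a RefSeq window, and in 8.92% of the 15398 tested genes with one. It was found in 4 of 21 IL-6 and STAT3 responsive genes with a window, 2 of 11 feedback inhibitors and 6 of 15 acute-phase genes. A match describes the letters only.

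Genes of the GM-CSF and STAT5 programme split. Of 15 such genes 4 were called higher and 6 lower, with a median log2 fold change of 0.06 that became -0.03 with the exon-length offset. The GM-CSF receptor genes Csf2rb (0.39 ± 0.05) and Csf2rb2 (0.37 ± 0.05) were higher with IL-6, and the IL-2 receptor gene Il2ra was lower, at 157, 155 and 152 CPM with IL-6 and 260, 274 and 240 CPM with GM-CSF (-0.74 ± 0.05). Csf1, which encodes macrophage colony-stimulating factor, was at 572, 592 and 560 CPM with IL-6 and 264, 284 and 245 CPM with GM-CSF (1.12 ± 0.05), with no overlap. The G-CSF receptor gene Csf3r was also higher (0.83 ± 0.06), and of 13 tested genes for colony-stimulating factors and their receptors 4 were called higher and 0 lower.

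Chemokine genes moved in both directions. Of 14 tested CC chemokine genes 4 were called higher and 4 lower, with a median log2 fold change of -0.06 that became 0.08 with the exon-length offset. The CCR4 ligand genes Ccl17 and Ccl22 (-1.25 ± 0.05) and Ccl5 (-1.29 ± 0.08) were lower with IL-6. Ccl2, the main CCR2 ligand gene, was at 32.6, 34.3 and 35.0 CPM with IL-6 and 16.5, 16.2 and 16.3 CPM with GM-CSF (1.06 ± 0.08). The neutrophil attractant genes Cxcl3 and Cxcl2 were higher, Cxcl3 at 254, 258 and 254 CPM with IL-6 and 108, 100 and 110 CPM with GM-CSF (1.26 ± 0.05). Platelet factor 4, encoded by Pf4, was at 368, 375 and 381 CPM with IL-6 and 184, 184 and 226 CPM with GM-CSF (0.92 ± 0.06). In all of these genes the groups were separate. Of 23 tested chemokine receptor genes 4 were called higher and 8 lower. The receptors of the neutrophil attractants were among those that rose, Cxcr1 by 1.02 ± 0.10 and Cxcr2 by 0.54 ± 0.06 log2 units, while Ccr7, which guides dendritic cells to lymph nodes, fell by 0.48 (SE 0.05).

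Among genes of innate immunity, Toll-like receptor and interferon-stimulated genes were more often called higher than lower, and inflammasome and complement genes were not. Of 23 Toll-like receptor and adaptor genes 13 were called higher and 3 lower, with a median log2 fold change of 0.24. Tlr4, the endotoxin receptor gene, was at 210, 218 and 208 CPM with IL-6 and 134, 151 and 136 CPM with GM-CSF (0.60 ± 0.05), while its co-receptor gene Cd14 was lower (-0.38 ± 0.05). Of 30 type I interferon-stimulated genes 12 were called higher and 4 lower, with Oas2 (1.14 ± 0.12) higher and Mx1 (-1.28 ± 0.10) lower; without IL-6 replicate 1 the count called higher was 7, and without any other single library 9. Of 17 inflammasome genes 3 were called higher and 4 lower, with a median of -0.04, and 5 were called higher with DESeq2 and 5 higher and 5 lower with the exon-length offset. Of 23 complement genes 1 was called higher and 5 lower; the 1 called higher lost its call without GM-CSF replicate 1, IL-6 replicate 1 or IL-6 replicate 2. The complement C1q genes C1qa, C1qb and C1qc fell together, C1qb at 5.72, 5.45 and 6.59 CPM with IL-6 and 15.9, 15.5 and 16.3 CPM with GM-CSF (-1.42 ± 0.10).

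Genes through which myeloid cells restrain T cells were called higher in 12 and lower in 1 of 23, with a median log2 fold change of 0.32. Inducible nitric oxide synthase, encoded by Nos2, was at 516, 548 and 510 CPM with IL-6 and 170, 187 and 148 CPM with GM-CSF (1.64 ± 0.06). Arginase 1, encoded by Arg1, was at 4376, 4654 and 4390 CPM with IL-6 and 2462, 2493 and 2480 CPM with GM-CSF (0.85 ± 0.07). The cationic amino acid transporter gene Slc7a2, which supplies both enzymes with arginine, rose by 1.06 ± 0.06. The checkpoint genes Havcr2 (TIM-3, 1.03 ± 0.07) and Cd274 (PD-L1, 0.61 ± 0.05) were higher. Pdcd1lg2, which encodes PD-L2, was the member called lower (-0.29), and Il10 (0.30) and Tgfb1 (-0.01) did not pass.

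Genes of amino acid supply and of the integrated stress response rose together. ATF4, a transcription factor translated more when amino acids run short, drives genes for amino acid uptake, asparagine and serine synthesis and tRNA charging; Trib3 and Chac1 are among its known targets. Trib3, on chromosome 2 at 152337422-152344032, was at 205, 221 and 211 CPM with IL-6, against 32.5, 35.3 and 33.9 CPM with GM-CSF. The groups were far apart, and the log2 fold change was 2.65 ± 0.06 (edgeR adjusted p = 6.13e-34). Chac1, which encodes a glutathione-degrading enzyme, was at 32.8, 33.3 and 32.6 CPM with IL-6 and 7.72, 10.1 and 7.75 CPM with GM-CSF (1.97 ± 0.09). Of 20 ATF4 and CHOP regulators and effectors 17 were called higher and 1, Bbc3, lower (-0.29 ± 0.05), with a median of 0.50. Atf5 (1.42 ± 0.05) and the secreted glycoprotein gene Stc2 (1.07 ± 0.05) were other members with the smallest p.

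The enzymes and carriers of the same pathway moved with them. Asparagine synthetase, encoded by Asns, was at 117, 122 and 117 CPM with IL-6 and 56.5, 53.5 and 56.1 CPM with GM-CSF (1.10 ± 0.06). Of 23 serine, one-carbon and asparagine enzyme genes 13 were called higher and 6 lower. The mitochondrial folate enzyme genes Aldh1l2 (1.77 ± 0.08) and Mthfd2 (0.61 ± 0.05) rose, while the cytosolic folate genes Aldh1l1 (-0.55), Mthfd1 (-0.40) and Shmt1 (-0.56) fell. Of 21 amino acid transporter genes 15 were called higher and 1 lower, with a median of 0.43; with the exon-length offset 2 were called lower, and without GM-CSF replicate 1 there were 0. The leucine carrier gene Slc7a5 was at 510, 529 and 502 CPM with IL-6 and 203, 215 and 186 CPM with GM-CSF (1.35 ± 0.07), and the neutral amino acid carrier gene Slc1a4 at 22.9, 22.4 and 20.5 CPM with IL-6 and 6.07, 5.61 and 5.44 CPM with GM-CSF (1.94 ± 0.09). Of 20 cytosolic aminoacyl-tRNA synthetase genes 15 were called higher and 2, Qars (-0.27) and Hars (-0.23), lower, or 1 lower without GM-CSF replicate 3. The alanyl enzyme gene Aars was at 289, 311 and 281 CPM with IL-6 and 149, 156 and 142 CPM with GM-CSF (0.98 ± 0.05).

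Genes of the unfolded protein response in the endoplasmic reticulum (ER) did not follow. Of 25 ER chaperone and degradation genes 4 were called higher and 12 lower, with a median of -0.13. Their summed level overlapped between groups, at 11270 to 11750 CPM with IL-6 and 11230 to 11590 CPM with GM-CSF. The largest rise in the list was that of the abundant gene Ero1l (0.77 ± 0.04). Sdf2l1, a chaperone partner gene, was at 101, 102 and 103 CPM with IL-6 and 201, 197 and 214 CPM with GM-CSF (-1.0 ± 0.05), while the main ER chaperone gene Hspa5 (-0.07) did not pass. Cytosolic heat shock chaperones were lower as well, with 15 of 21 called lower and 1, the regulator gene Hsf1 (0.25), higher. Hspa8, the most abundant of those with the smallest p, was at 271, 276 and 275 CPM with IL-6 and 417, 421 and 403 CPM with GM-CSF (-0.59 ± 0.04).

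The C/EBP-ATF composite element, TGATGNAA, is the motif through which ATF4 is known to act, and it was searched on both strands over the same windows. It was found in 4.51% of all 27025 genes and in 3.38% of the 15398 tested genes with a window. Of tested list members with a window, 7 of 18 ATF4 and CHOP genes and 5 of 12 aminoacyl-tRNA synthetase genes had it. So did 4 of 19 serine and one-carbon genes and 3 of 16 amino acid transporter genes. Here too a match describes the letters only, and the shares were not tested. Stretches of 100 bases are shown for an effector, an enzyme and a synthetase, with the element in capitals as it reads on the gene's strand (TTGCATCA is TGATGCAA on the other strand). They lie at chr2:119351003-119351102 (plus strand, Chac1), chr6:7693210-7693309 (minus strand, Asns) and chr8:111033684-111033783 (plus strand, Aars) of GRCm38.p6 and begin 239, 100 and 158 bases before the RefSeq starts.
Chac1: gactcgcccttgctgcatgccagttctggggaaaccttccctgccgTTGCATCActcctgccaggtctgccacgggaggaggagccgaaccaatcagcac
Asns: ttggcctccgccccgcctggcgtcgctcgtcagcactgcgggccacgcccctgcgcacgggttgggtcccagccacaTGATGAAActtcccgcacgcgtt
Aars: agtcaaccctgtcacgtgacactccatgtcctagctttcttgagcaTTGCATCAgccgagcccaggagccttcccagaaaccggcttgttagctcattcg

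Cholesterol synthesis genes fell as a group. Of 21 enzyme genes 20 were called lower and 0 higher, with a median log2 fold change of -1.10; Ggps1 (0.08) did not pass. HMG-CoA synthase, encoded by Hmgcs1, was at 68.0, 70.5 and 67.3 CPM with IL-6, against 171, 180 and 180 CPM with GM-CSF (-1.37 ± 0.05; edgeR adjusted p = 2.80e-26). Lanosterol demethylase, encoded by Cyp51, was at 42.5, 41.3 and 44.3 CPM with IL-6 and 124, 128 and 134 CPM with GM-CSF (-1.59 ± 0.05). In both genes every IL-6 library was below every GM-CSF library. Acat2 (-1.88 ± 0.08), of the first step, and Fdps (-1.91 ± 0.11) and Fdft1 (-1.43 ± 0.06), which join isoprenoid units, fell further than the median member.

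Genes that sense, take up and move sterols divided by role. Soat2, which encodes an enzyme that esterifies cholesterol for storage and lies on chromosome 15 at 102150526-102163469, was at 47.0, 41.1 and 43.3 CPM with IL-6 and 7.34, 6.49 and 6.98 CPM with GM-CSF (2.65 ± 0.08). Cholesterol 25-hydroxylase, encoded by Ch25h, was at 61.8, 66.9 and 64.5 CPM with IL-6 and 21.3, 21.3 and 21.4 CPM with GM-CSF (1.59 ± 0.06). The efflux pump gene Abca1 was at 124, 121 and 113 CPM with IL-6 and 56.9, 67.5 and 57.8 CPM with GM-CSF (0.98 ± 0.07). The sterol transfer protein gene Stard4 (-0.81 ± 0.05) and the feedback gene Insig1 (-0.83 ± 0.06) fell. Of the 24 genes of this list 8 were called higher and 10 lower. Of 24 fatty acid synthesis and desaturation genes 2 were called higher and 15 lower, with Fasn at 129, 137 and 122 CPM with IL-6 and 365, 401 and 322 CPM with GM-CSF (-1.49 ± 0.06) and the desaturase gene Fads2 at 30.6, 29.9 and 29.7 CPM with IL-6 and 88.5, 101 and 89.5 CPM with GM-CSF (-1.63 ± 0.06). The acyltransferase gene Dgat2, which makes triglyceride, rose instead (0.71 ± 0.06). The number called higher in this list was 1 with the exon-length offset and without any single library of the comparison other than IL-6 replicate 1.

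The sterol response element TCACNCCAC, bound by SREBP factors, was found in 1.44% of the 27025 genes and in 1.46% of the 15398 tested genes with a window. It was found in 1 of 16 cholesterol synthesis genes with a window. That gene was Hmgcs1, shown from 183 to 84 bases before its RefSeq start on the plus strand at chr13:119690168-119690267 of GRCm38.p6, with the element in capitals.
Hmgcs1: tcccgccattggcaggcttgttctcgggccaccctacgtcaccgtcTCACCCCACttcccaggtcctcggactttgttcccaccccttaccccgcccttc

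Genes induced by low oxygen rose, with 21 of 26 called higher and 1, Cited2 (-0.19), lower, and a median of 0.32. The vasodilator peptide gene Adm was at 41.6, 44.4 and 41.0 CPM with IL-6 and 9.38, 8.57 and 9.28 CPM with GM-CSF (2.21 ± 0.07). Epas1, which encodes the oxygen-regulated factor HIF-2alpha, was at 45.6, 42.6 and 41.0 CPM with IL-6 and 17.6, 18.5 and 15.2 CPM with GM-CSF (1.35 ± 0.07). Of 25 glycolysis and glucose transporter genes 11 were called higher and 4 lower, Slc2a1 (0.61 ± 0.04) and Pfkfb3 (0.58 ± 0.06) among the first and Aldoc (-0.43 ± 0.05) among the second; with the exon-length offset 14 were called higher and 7 lower. The pentose phosphate and NADPH genes, by contrast, were lower in 9 of 14 and higher in 0, with Pgd at 730, 769 and 732 CPM with IL-6 and 1050, 1039 and 1023 CPM with GM-CSF (-0.48 ± 0.04). Components of the phagocyte NADPH oxidase were called lower in 5 of 12, among them Cybb (-0.43 ± 0.05), and higher in 2. Those called higher numbered 4 with the exon-length offset, and 1 without GM-CSF replicate 2, IL-6 replicate 1 or IL-6 replicate 2.

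**Figure D4:**
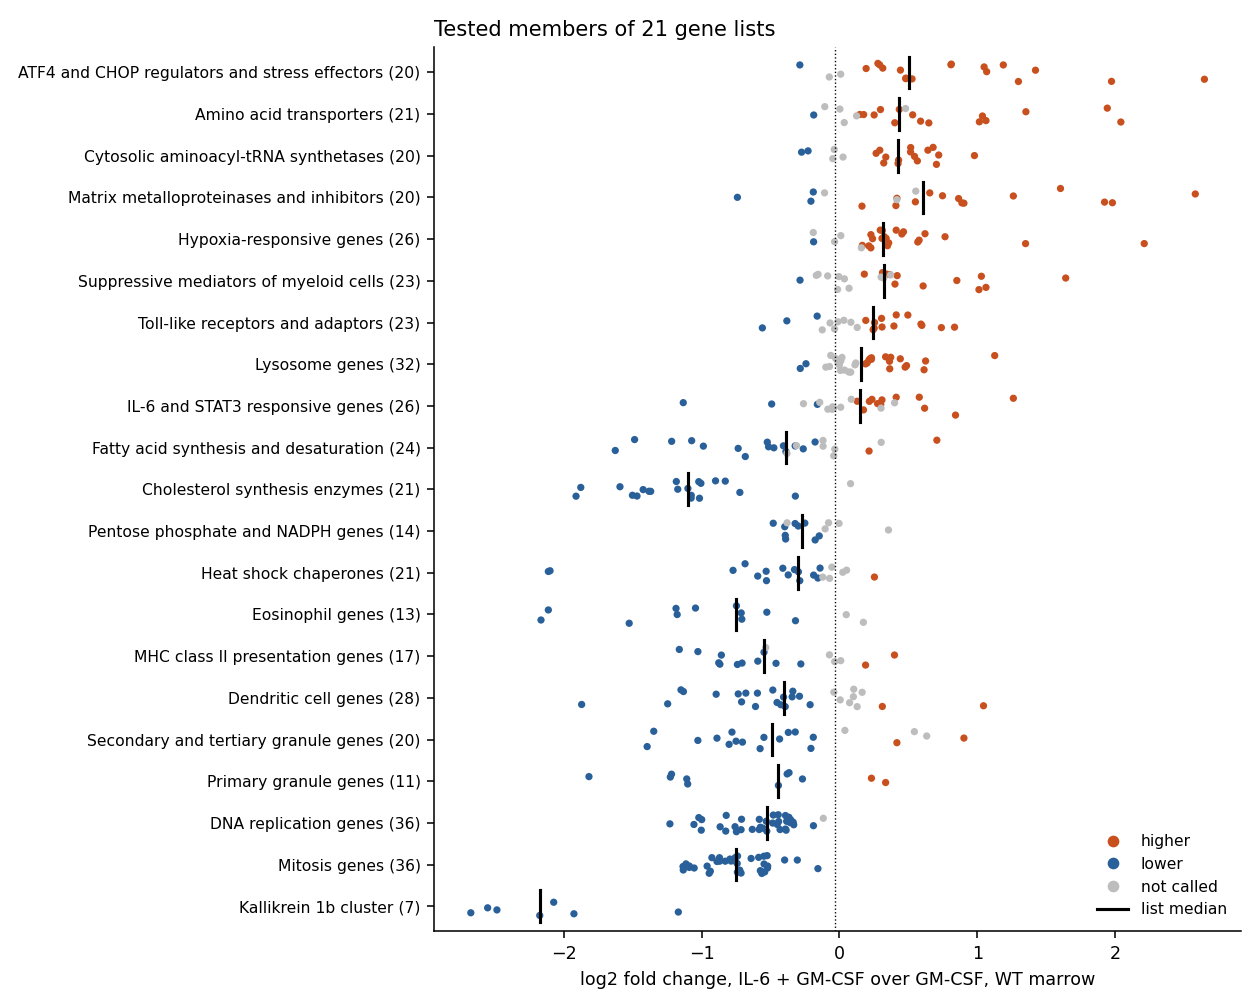
Each row is a list of genes, each dot a tested member's log2 fold change, IL-6 over GM-CSF, in WT marrow, and the black bar the list's median; the dotted line is the median of all tested genes, -0.03. Coloured dots were called, orange higher and blue lower. Amino acid, hypoxia and suppressive lists lie to the right of 0, and sterol, cell cycle, granule and antigen presentation lists to the left.

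Most neutrophil granule genes were lower with IL-6. Of 11 tested primary granule genes, made by promyelocytes, 9 were called lower and 2, Ctsc (0.34) and Cd63 (0.23), higher, with a median log2 fold change of -0.44. Neutrophil elastase, encoded by Elane, was at 174, 181 and 171 CPM with IL-6 and 407, 398 and 427 CPM with GM-CSF (-1.23 ± 0.05). Of 20 secondary and tertiary granule genes, made by later stages, 15 were called lower and 2 higher, with a median of -0.49. Lactoferrin, encoded by Ltf, was at 522, 559 and 524 CPM with IL-6 and 1092, 1075 and 1105 CPM with GM-CSF (-1.03 ± 0.05). Mmp8, the neutrophil collagenase gene, went against the rest at 2872, 3049 and 2859 CPM with IL-6 and 1600, 1650 and 1444 CPM with GM-CSF (0.90 ± 0.05). Mature neutrophil genes split into 8 called higher and 11 called lower: Ly6g (-1.19 ± 0.05), S100a8 (-0.96 ± 0.07) and Retnlg (-1.09 ± 0.06) fell, while Wfdc17 (1.45 ± 0.07) and Csf3r rose. With the exon-length offset 12 of those 27 genes were called higher and 8 lower, and their median of -0.09 became 0.16.

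Dendritic cell and antigen presentation genes fell. Of 28 dendritic cell genes 19 were called lower and 2 higher, or 4 higher with the exon-length offset, with a median of -0.40. Cd209a, the DC-SIGN gene typical of marrow-derived dendritic cells, was at 9.72, 9.60 and 9.55 CPM with IL-6 and 33.4, 37.0 and 35.3 CPM with GM-CSF (-1.87 ± 0.08). Cadm1, an adhesion gene of type 1 dendritic cells, rose (1.04 ± 0.09), whereas Clec9a (0.07) and Xcr1 (-0.04) of the same subset did not pass. Of 17 MHC class II presentation genes 11 were called lower and 2, March1 (0.40) and Ctss (0.19), higher, or 1 higher without GM-CSF replicate 2. H2-Aa was at 619, 651 and 642 CPM with IL-6 and 1410, 1333 and 1534 CPM with GM-CSF (-1.16 ± 0.05). Costimulatory genes were mixed, with Tnfsf14 (1.10 ± 0.06) and Cd86 (0.38) higher and Tnfsf8 (-1.12 ± 0.08) and Cd83 (-0.68 ± 0.06) lower.

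Monocyte, macrophage and eosinophil genes moved in different directions. Of 13 tested eosinophil genes 11 were called lower and 0 higher, with a median of -0.75; the granule protein gene Prg2 was at 194, 206 and 206 CPM with IL-6 and 308, 333 and 374 CPM with GM-CSF (-0.75 ± 0.06). Of 22 monocyte genes 6 were called higher and 12 lower. The matrix proteoglycan gene Vcan was at 312, 308 and 291 CPM with IL-6 and 93.7, 106 and 87.8 CPM with GM-CSF (1.67 ± 0.06), while Ly6c2, the classical monocyte antigen gene, was lower (-1.03 ± 0.08). Of 20 tested lipid-associated macrophage genes 11 were called higher and 5 lower (3 with the exon-length offset), with Spp1 at 3463, 3664 and 3530 CPM with IL-6 and 1828, 1833 and 1985 CPM with GM-CSF (0.92 ± 0.05) and the lipase gene Lpl at 280, 278 and 265 CPM with IL-6 and 754, 811 and 775 CPM with GM-CSF (-1.51 ± 0.05). Alternative activation genes likewise divided, 7 called higher and 10 lower of 19: Mrc1 and Arg1 rose, whereas Retnla (-1.34 ± 0.06) and Ccl24 (-0.92 ± 0.07) fell.

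Proteases and matrix genes were called higher more often than lower. Of 20 metalloproteinase and inhibitor genes 14 were called higher and 3, Mmp2 (-0.74), Mmp9 (-0.19) and Mmp25 (-0.21), lower, with a median of 0.60. Mmp19 was at 570, 609 and 559 CPM with IL-6 and 310, 341 and 304 CPM with GM-CSF (0.86 ± 0.06). Of 32 lysosome genes 16 were called higher and 2 lower, led by cathepsin L (Ctsl), at 2694, 2825 and 2738 CPM with IL-6 and 1245, 1237 and 1299 CPM with GM-CSF (1.13 ± 0.05). Of 20 matrix genes 7 were called higher and 0 lower, among them Tgfbi (1.09 ± 0.05). The adhesion gene Pecam1 was at 257, 264 and 250 CPM with IL-6 and 129, 134 and 123 CPM with GM-CSF (1.00 ± 0.05), without overlap.

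Cell division genes were lower throughout. Of 36 DNA replication genes 35 were called lower and 0 higher, with a median log2 fold change of -0.53, and Tyms (-0.12) did not pass. All 36 mitosis genes were called lower, with a median of -0.75. The mitotic kinase gene Cdk1 was at 34.5, 32.0 and 34.5 CPM with IL-6 and 72.6, 75.9 and 74.0 CPM with GM-CSF (-1.14 ± 0.06), and the helicase subunit gene Mcm7 at 39.0, 41.3 and 35.5 CPM with IL-6 and 77.7, 80.1 and 77.0 CPM with GM-CSF (-1.02 ± 0.06). In both the groups were separate. With the exon-length offset 33 replication genes and 36 mitosis genes were called lower. Progenitor genes did not fall with them: 7 of 16 were called higher, Adgrg1 (0.79 ± 0.06), Cd93 (0.80 ± 0.06) and Sox4 (0.82 ± 0.08) among these, and 3, Cd34 (-0.76 ± 0.05), Spink2 (-1.49 ± 0.16) and Myb (-0.33), were called lower.

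Genes for ribosomes and respiration, with a median exon length of 1770 bases in ribosomal protein genes and 1737 bases in nuclear oxidative phosphorylation genes, were called lower in large numbers by small amounts. Of 81 cytosolic ribosomal protein genes 71 were called lower and 0 higher, with a median of -0.28. Rpl37a was at 155, 158 and 160 CPM with IL-6 and 260, 222 and 304 CPM with GM-CSF (-0.74 ± 0.07), so the GM-CSF libraries differed among themselves by more than the IL-6 libraries did. Of 74 nuclear oxidative phosphorylation genes 64 were called lower and 0 higher, with a median of -0.37, and of 43 proteasome genes 26 lower and 1 higher. With the exon-length offset 55 ribosomal protein genes, 50 oxidative phosphorylation genes and 19 proteasome genes were called lower; 2 proteasome genes were then called higher, as they were without GM-CSF replicate 3. Of 13 mitochondrially encoded protein genes 8 were called lower and 0 higher, against 2 lower with the offset, 5 with DESeq2 and 5 without GM-CSF replicate 1. Ribosome biogenesis genes, with a median exon length of 4052 bases, were called higher in 6 and lower in 7 of 32.

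The same addition of IL-6 to labelled-deficient marrow gave another 3 against 3 libraries, none of them shared with the WT comparison. Counts over Cysltr1 were not lower in it: the gene was at 80.5, 81.7 and 80.1 CPM with IL-6 and 61.2, 57.6 and 62.8 CPM with GM-CSF in WT marrow, and at 90.8, 90.8 and 87.7 CPM with IL-6 and 75.2, 77.4 and 78.7 CPM with GM-CSF in labelled-deficient marrow. Which part of the gene was deleted is not stated, so these counts do not check the label. In that marrow 14.3% of tested genes were called, 5.54% higher (1571) and 8.77% lower (2486). Of the 2940 genes called higher in WT marrow 1005 were also called higher there, which is 34.18% of the WT list and 63.97% of the labelled-deficient list, and 140 were called lower. Of the 3195 called lower in WT marrow 1484 were also called lower, 46.45% of the WT list and 59.69% of the other, and 30 were called higher. A test of the difference between both effects called 7.38% of tested genes, 2091, 4.46% with the more positive effect in WT marrow (1263) and 2.92% with the more negative (828), and 17.4% of genes at 5 CPM or more.

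In several amino acid and sterol lists the effect of IL-6 differed by genotype in most members. Of 20 ATF4 and CHOP genes 13 had a more positive effect in WT marrow and 0 a more negative one, as did 14 of 21 amino acid transporters and 16 of 20 tRNA synthetases, against 1 synthetase the other way. Of 23 serine, one-carbon and asparagine enzyme genes 10 had the more positive effect in WT marrow and 0 the more negative. Trib3 was at 289, 291 and 288 CPM with IL-6 and 247, 250 and 253 CPM with GM-CSF in labelled-deficient marrow, a log2 fold change of 0.21 ± 0.05, and the difference of effects was 2.44 ± 0.08 (edgeR adjusted p = 5.13e-27). Asns there was at 139, 133 and 131 CPM with IL-6 and 177, 169 and 174 CPM with GM-CSF (-0.37), a fall where WT marrow had a rise. The groups of 3 thus lay apart in both genotypes, but in opposite directions. Summed over the 20 ATF4 and CHOP genes, the WT libraries were at 4155 to 4326 CPM with IL-6 and 2751 to 2870 CPM with GM-CSF, and the labelled-deficient libraries at 4206 to 4332 CPM with IL-6 and 3804 to 3864 CPM with GM-CSF. The WT GM-CSF libraries were thus the lowest of the 4 groups, and the IL-6 libraries of both genotypes overlapped.

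Cholesterol synthesis genes differed in the opposite direction. All 20 cholesterol synthesis genes called for a difference had the more negative effect in WT marrow, and 16 of the 21 were called lower in labelled-deficient marrow, with a median of -0.36. Of the 24 genes that sense, take up and move sterols 9 were called for a difference, 3 with the more positive and 6 with the more negative effect in WT marrow. Hmgcs1 was at 47.4, 48.5 and 48.2 CPM with IL-6 and 58.6, 58.6 and 57.1 CPM with GM-CSF in labelled-deficient marrow (-0.28), a difference of effects of -1.09 ± 0.07. The 21 genes together were at 879 to 918 CPM with IL-6 and 1875 to 1920 CPM with GM-CSF in WT marrow, and at 581 to 590 CPM with IL-6 and 768 to 789 CPM with GM-CSF in labelled-deficient marrow. Here the WT GM-CSF libraries were the highest of the 4 groups. Soat2, at 43.4, 42.7 and 46.0 CPM with IL-6 and 38.3, 39.5 and 38.5 CPM with GM-CSF in labelled-deficient marrow, changed there by 0.18 ± 0.06.

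Other groups varied in how many members were called for a difference. Mmp13 rose by 2.58 log2 units in WT marrow and 2.61 in labelled-deficient marrow, a difference of effects of -0.03 ± 0.07, and Adm by 2.21 in WT marrow and 1.97 in labelled-deficient marrow, a difference of 0.25 ± 0.10. In labelled-deficient marrow hypoxia genes were called higher in 17 and lower in 1 of 26, with 5 called for a difference, pentose phosphate genes lower in 8 and higher in 0 of 14 with 0 called for a difference, and eosinophil genes lower in 9 and higher in 0 of 13, with 1 called for a difference. For secondary and tertiary granule genes the fall was larger in labelled-deficient marrow, with a median of -0.81, and 12 of 20 had the more positive effect in WT marrow and 1 the more negative. Ltf there was at 171, 174 and 179 CPM with IL-6 and 545, 573 and 584 CPM with GM-CSF (-1.70), a difference of effects of 0.67 ± 0.07. Ribosome biogenesis genes were lower in 28 of 32 in labelled-deficient marrow, where their median was -0.35 (-0.03 in WT marrow), and 20 had the more positive effect in WT marrow. More than 1 in 2 members were also called for a difference among ER chaperone and degradation genes (17 of 25), mature neutrophil genes (15 of 27), alternative activation genes (11 of 19) and primary granule genes (6 of 11). Of 36 mitosis genes 17 were called for a difference, all with the more negative effect in WT marrow.

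**Figure D5:**
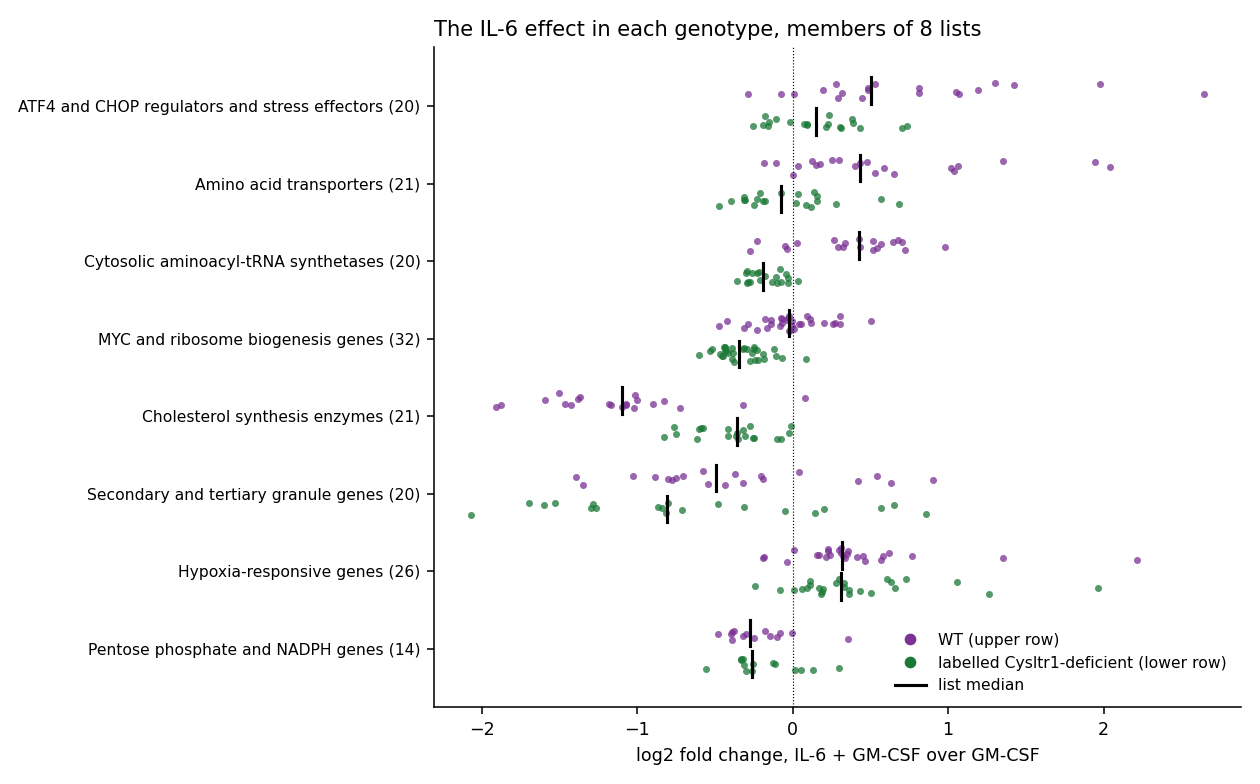
For 8 gene lists, dots are the log2 fold changes of members with IL-6 in WT marrow (upper row of each pair) and in labelled-deficient marrow (lower row), and black bars are medians. The amino acid lists and cholesterol synthesis, with a WT median of -1.10 and a labelled-deficient median of -0.36, differ most between rows, and the hypoxia and pentose phosphate lists least.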

How the data were processed

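Poly(A) RNA was sequenced from 18 libraries, 3 per group. The authors deposited whole-number read counts per gene for each library; the submitters' processing notes name HISAT2 (version 2.1.0), HTSeq (version 0.13.5) and the build mm10, but the annotation and the strand setting are not given in the sources used here. The authors' normalized table (18 columns) was not used. HTSeq left 12.85% to 15.88% of reads in the 6 WT libraries outside genes, and 26248 numbered entries without a gene name held 0.03994% to 0.05598% of their feature counts. The mean share outside genes was 36.15% in the WT libraries with EMT6 medium and 50.18% in the labelled-deficient ones. It was 14.24% with GM-CSF and 14.45% with IL-6 in WT marrow. In labelled-deficient marrow it was 17.61% with GM-CSF and 19.55% with IL-6. The part of this in the genotype differences was not tested. All 18 libraries entered a fit in edgeR 4.0.16 (R 4.3.3) with 1 mean per group, TMM scaling and edgeR's default expression filter; the quasi-likelihood test with Benjamini-Hochberg adjustment gave the contrasts IL-6 minus GM-CSF in each genotype and their difference. CPM use TMM-scaled totals of the 28334 tested genes. Replicates differed by more than counting error (chi-square over degrees of freedom 1.635 to 7.506). The fit was tested on simulated data.

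The 73 gene lists (1554 genes) and the comparison were chosen with earlier results of these data known. Named genes were the 15 largest rises and falls (called, at 5 CPM or more in the higher group, groups not overlapping), the 4 members of a list with the smallest p, called members that went against their list and, for the genotype difference, the 10 smallest p among these. Genes with predicted or clone names were left out of the 15 largest rises and falls, also where their change was larger. Il6ra, Csf2rb, Csf2rb2, Ccl2, Ccl24, Cd86 and Insig1, and members that did not pass, were named after their values were seen; some genes the rule names are not reported here. Exon lengths are from GENCODE M21 and sequences from RefSeq on GRCm38.p6. Alternatives were DESeq2 1.42.0, its size factors, library-size scaling, other expression filters, fewer groups in the fit, a replicate block, single libraries left out and an exon-length offset.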

Additional observations from a re-analysis of the deposited data

Results flagged for a closer look

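The effect of IL-6 differed between WT and labelled-deficient marrow by the test of the difference itself for 10 named genes, given here as the WT log2 fold change minus the labelled-deficient one. The differences were 2.44 for Trib3, 2.47 for Soat2, 1.47 for Asns, 2.26 for Slc1a4, 2.23 for Chac1, 1.20 for Atf5, 1.19 for Ch25h, 1.53 for Slc7a5 and 1.06 for Aars, and -1.09 for Hmgcs1. For Hmgcs1 the WT GM-CSF libraries were the highest of the 4 groups, and for the other 9 genes each WT GM-CSF library was below every library of the other groups.

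In 10 of the gene lists most of the tested members were called for a difference. These were 20 cholesterol synthesis genes, 20 MYC and ribosome biogenesis genes, 17 tRNA synthetase genes, 17 ER chaperone and degradation genes, 15 mature neutrophil genes, 14 amino acid transporter genes, 13 ATF4 and CHOP genes, 13 secondary and tertiary granule genes, 11 alternative activation genes and 6 primary granule genes. Their share is read against the 17.4% of genes at 5 CPM or more that were called for a difference.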

How the results depend on the processing

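Of the 272 genes that the naming rule took by size of change or by list, 271 were called in WT marrow. None of these reversed its call under any of the 15 alternative settings, and 265 were called under all 15. They were picked by size or smallest p in the main fit to the same libraries, so their stability does not describe that of other calls. With the exon-length offset the medians of 7 of the 73 lists changed sign. Beside the list counts already given under other settings, without a low-count filter 4 ribosome biogenesis genes were called lower and 5 dendritic cell genes higher. Among the genes not called under all 15 settings, Cd3d (without GM-CSF replicate 1), Gbp9 (without GM-CSF replicate 3 or IL-6 replicate 1), Ppard (without GM-CSF replicate 3) and mt-Cytb (DESeq2) lost their call. With the exon-length offset Cd3d, mt-Cytb and mt-Nd6 lost theirs. All 30 largest changes taken by the naming rule and all 10 genotype differences kept their calls. At 2-fold or more in WT marrow DESeq2 called 367 genes and a 5 CPM filter left 268, against 574; in labelled-deficient marrow these were 174 and 131, and for the genotype difference 89 and 80. Fitting only the groups compared called 2390 genes higher in labelled-deficient marrow. More negative genotype differences numbered 1474 with the 5 CPM filter, 1283 with only the groups compared and 1283 without the EMT6 libraries; DESeq2 called 1962 more positive ones. Calls were 47.9% higher in WT marrow. In labelled-deficient marrow 38.7% were higher, against 26.6% with DESeq2, 28.0% with its size factors and 50.5% with the 5 CPM filter. Of genotype differences 60.4% were more positive, against 77.9%, 75.3% and 46.6% in the same order, 52.4% with library sizes and 74.6% without a filter. The causes were not tested.

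With single libraries left out, WT calls ranged from 5073 to 6013 (2354 to 2781 higher, 2671 to 3249 lower, 521 to 621 at 2-fold), labelled-deficient calls from 3096 to 3403 (1215 to 1319, 1804 to 2140, 284 to 325) and genotype differences from 1489 to 2240 (872 to 1237, 598 to 1003, 140 to 234). Correlations of deviations between WT samples of the same replicate number were 0.0453, 0.0919 and 0.256. Between WT samples of different numbers they ran from -0.266 to 0.176. These values do not settle whether replicate numbers pair the samples. With a replicate block 6004, 3957 and 2018 genes were called, in the same order of comparisons. With the exon-length offset, added after the data were seen, 6147 genes were called in WT marrow, 3090 higher and 3057 lower, of which 4962 were among the 6135.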

Other observations

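Lipid mediator genes, outside the groups described, moved with IL-6 in WT marrow. Of 19 leukotriene genes 5 were called higher and 6 lower. Lta4h, whose enzyme makes leukotriene B4, was at 163, 170 and 162 CPM with IL-6 and 313, 320 and 314 CPM with GM-CSF (log2 fold change -0.94 ± 0.05), while Pla2g4a, whose phospholipase frees arachidonic acid, rose (0.79 ± 0.06). The groups did not overlap in either gene. The prostaglandin E2 receptor genes Ptger3 (1.49 ± 0.09) and Ptger2 (0.97 ± 0.07) rose and Ptger4 (-0.57 ± 0.07) fell, and the cyclooxygenase-2 gene Ptgs2 was at 5.89, 5.76 and 6.07 CPM with IL-6 and 3.35, 2.58 and 2.81 CPM with GM-CSF (1.01 ± 0.12).

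Iron genes divided as well, with 8 called higher and 7 lower of 27. The zinc and iron importer gene Slc39a14 was at 136, 131 and 128 CPM with IL-6 and 51.1, 56.3 and 53.7 CPM with GM-CSF (1.30 ± 0.05), while the transferrin receptor gene Tfrc fell (-0.81 ± 0.05). Among genes listed for T and NK cells Il7r alone rose (1.20 ± 0.05), at 285, 287 and 278 CPM with IL-6 and 119, 132 and 120 CPM with GM-CSF, while Thy1 fell (-0.61 ± 0.06); Cd3d, at 4.39, 4.15 and 4.08 CPM with IL-6 and 7.19, 6.11 and 5.55 CPM with GM-CSF, was called lower but lost that call without GM-CSF replicate 1. The T and NK markers together were at 18.9 to 20.8 CPM with IL-6 and 24.4 to 25.7 CPM with GM-CSF.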
